A study of Mus musculus with 2 samples.

Results

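The genes described here encode the proteins of the cytosolic and the mitochondrial ribosome. They were chosen by symbol from the deposited table of 24354 genes. Of the 162 genes that matched, 77 encode cytosolic subunit proteins (46 of the large 60S subunit and 31 of the small 40S subunit) and 77 encode mitochondrial subunit proteins (48 large and 29 small). A further 5 are paralogues of a cytosolic gene (Rpl3l, Rpl10l, Rpl22l1, Rpl39l and Rps27l), which are set beside their parent genes, and 3 are other copies (Rpl36al, Rpl7l1 and Rps4l).

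The study asked what loss of INO80, the catalytic subunit of a chromatin remodeling complex, does to differentiating mouse embryonic stem cells (ESCs). Polyadenylated RNA was sequenced from 1 culture of Diff–CONT ESCs and 1 culture of Diff–iKO ESCs. Diff–iKO ESCs carry Ino80 2f/2f alleles and ROSA26-CreER, in which the CreER recombinase is driven from the ROSA26 locus and becomes active with 4-hydroxytamoxifen (4-OHTM). The labels call the control genotype WT, whereas the methods describe control ESCs as Ino80 2f/2f without CreER. Both lines were grown as embryoid bodies and then held for 7 days in differentiation medium with BMP4 and 0.5 µM 4-OHTM, so the controls received the drug too. Since each condition is 1 library of 1 line, condition, line and culture cannot be told apart and no test between the conditions exists.

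Values are FPKM, fragment counts divided by transcript length and library size, which the authors scaled between the libraries. The whole-fragment steps of the values gave a depth on genes of 28259017 fragments (Diff–CONT) and 22004293 fragments (Diff–iKO). A log2 ratio is the Diff–iKO value over the Diff–CONT value, and the range after it is an exact (Clopper-Pearson) 95% interval that covers counting error only. The cut-off for a called gene is the fold change (FC) ≥ 2 with FPKM ≥ 2 in at least 1 library. Ino80 itself was at 8.90 FPKM in Diff–CONT and 10.3 in Diff–iKO (log2 ratio 0.21, 0.11 to 0.31), which is not lower in the knockout line. FPKM over the whole gene does not show whether the floxed part is present, so Diff–iKO stands below for the library labelled so. The 5 pluripotency markers summed to 133 FPKM with Diff–CONT but 453 with Diff–iKO, and all 5 were higher in the latter. The 9 mesoderm and heart markers summed to 85.3 and 19.5, with 8 of 9 lower, and the 3 endoderm markers to 118 and 3.02, with 3 of 3 lower. The 3 fibroblast markers summed to 1236 and 1378, with 2 of 3 lower: Col1a2 was at 336 and 168 FPKM and Thy1 at 20.1 and 10.4, while Col1a1, which makes up most of the sum, was at 880 and 1199. The 3 neural markers summed to 91.7 and 91.6, with Nes higher (28.8 and 44.1) and 2 of 3 lower, among them Tubb3 (60.1 and 45.0). In these bulk samples, fewer cells of a type and less RNA per cell cannot be told apart, and the part of cell makeup in the values below was not tested.

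Cytosolic ribosomes translate the messages of nuclear genes. Their proteins are needed in nearly equal numbers, their messages are among the most abundant of a growing cell, and their transcripts typically begin with a run of pyrimidines (a TOP start) through which mTOR signalling controls their translation. Mitochondrial ribosomes sit in the matrix and make only the few respiratory chain proteins that mitochondrial DNA encodes, with all of their own proteins imported from the cytosol. Several cytosolic genes have a paralogue with tissue-restricted expression, for instance Rpl10l and Rpl39l in male germ cells and Rpl3l in striated muscle. Cytosolic ribosomal protein genes also have many processed pseudogenes, copies of the spliced message that lie elsewhere in the genome and can be nearly identical to it.

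Cytosolic ribosomal protein messages were on balance slightly lower in the Diff–iKO library, and mitochondrial ones slightly higher. The median log2 ratio was -0.11 over the 77 cytosolic genes, of which 27 were higher and 50 lower, and 0.10 over the 77 mitochondrial genes, of which 47 were higher and 30 lower. Over the 13145 genes of the table with a mean FPKM of at least 1, the median was -0.01 and 49.3% were higher. The 60S genes had a median of -0.16 (17 higher, 29 lower) and the 40S genes -0.06 (10 higher, 21 lower). The large and small mitochondrial subunits both had a median of 0.10. All of these medians lay well inside the quartiles of all genes, -0.40 and 0.35. Equal-sum scaling, which sets both libraries to the same total FPKM, shifts every ratio by -0.09 and leaves the mitochondrial median near 0, at 0.0038, while the cytosolic median becomes -0.20. The difference between the cytosolic and mitochondrial medians, -0.21, does not depend on the scaling.

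**Figure D1:**
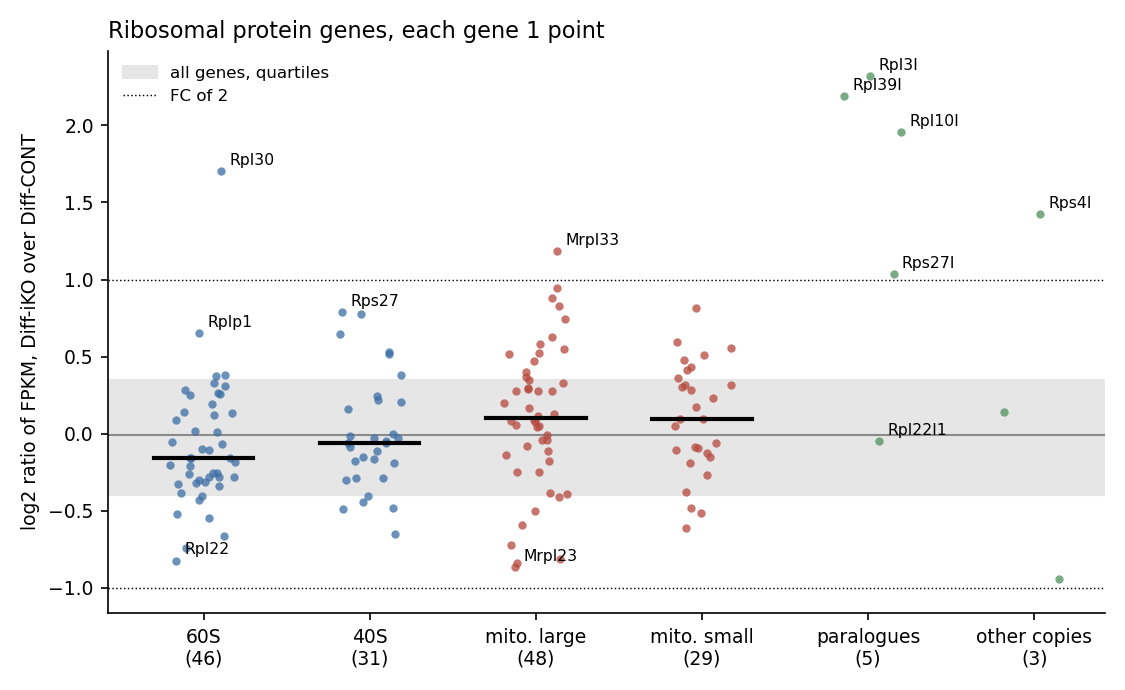
The log2 ratio of FPKM (Diff–iKO over Diff–CONT, vertical axis) is plotted for every gene, 1 point each, by class, with the class median as a black bar for the 4 subunit classes, the quartiles of all genes as a grey band and FC of 2 as dotted lines. Most subunit genes lie in or near the band, Rpl30 and Mrpl33 lie above FC of 2, and 4 of the 5 paralogues lie above it too.

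The classes hold very different parts of the message pool. Cytosolic genes made up 15.3% of all FPKM in Diff–CONT and 14.3% in Diff–iKO, and mitochondrial genes 0.518% and 0.546%. These shares leave out the rows of retrocopies and pseudogenes, which for 4 cytosolic genes described below held most of the summed FPKM. As a share of recovered fragments, which does not divide by transcript length, the cytosolic values were 4.98% and 4.57% and the mitochondrial values 0.270% and 0.279%. Summed FPKM moved less than the medians in the cytosolic class, from 67466 to 67096 (log2 ratio -0.01). For the 60S genes the log2 ratio of the sums was -0.05, for the 40S genes 0.04, and for the mitochondrial genes 0.17. Under equal-sum scaling these became -0.14, -0.05 and 0.08, and the cytosolic ratio became -0.10.

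Few members were past the cut-off. Of all 12376 genes with enough FPKM, 15.1% were called, 6.73% higher and 8.39% lower in Diff–iKO. Among the 77 cytosolic genes 1 was called, Rpl30, and among the 77 mitochondrial genes 1, Mrpl33. Both were higher, and no subunit gene was called lower. At FC ≥ 1.5, 9 of 77 cytosolic genes (11.7%) and 14 of 77 mitochondrial genes (18.2%) passed, against 32.5% of all genes. Small differences are nonetheless resolved by the depth: the counting interval lay wholly on 1 side of 0 for 70 of 77 cytosolic genes (24 higher, 46 lower) and for 53 of 77 mitochondrial genes (35 higher, 18 lower), against 77.9% of all genes. The median cytosolic gene rests on 15234 fragments in Diff–CONT and the median mitochondrial gene on 796, and the part of depth in these shares was not tested. The shares say nothing of the spread between cultures.

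**Figure D2:**
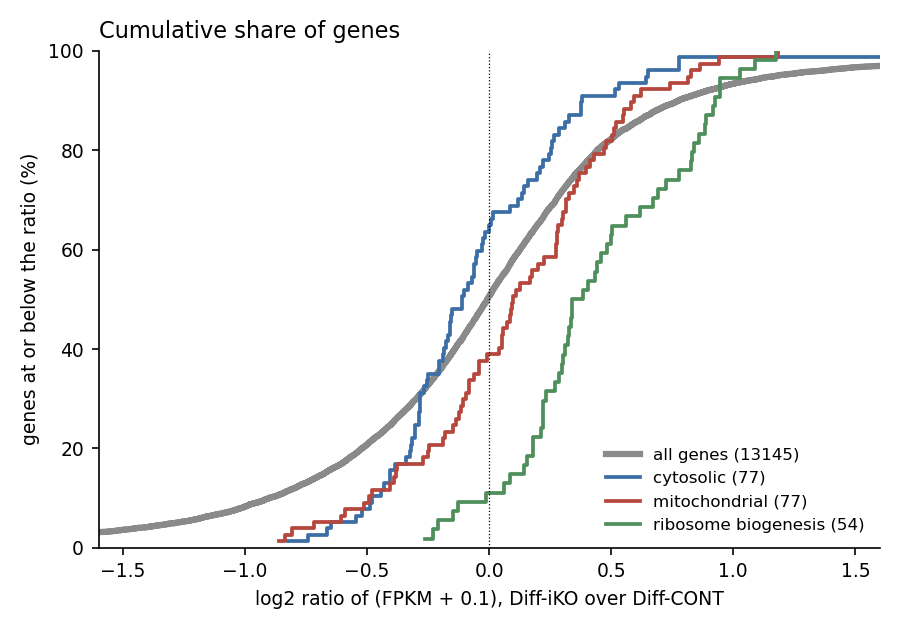
Cumulative share of genes (vertical axis, percent) at or below each log2 ratio of FPKM + 0.1 (horizontal axis) for all genes, the cytosolic and mitochondrial classes and the ribosome biogenesis list, with the number of genes in brackets. The cytosolic curve crosses 50% at -0.11, the mitochondrial one at 0.10 and the biogenesis one at 0.36, and the 3 curves are steeper than that of all genes.

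Among the most abundant cytosolic genes, the messages of the 3 ribosomal stalk proteins all had ratios above 0, and none was past the cut-off. The stalk is the protrusion of the 60S subunit that recruits translation factors, with Rplp0 as its base and Rplp1 and Rplp2 as its arms. Rplp0 was at 1205 FPKM in Diff–CONT and 1450 in Diff–iKO (log2 ratio 0.27, 0.25 to 0.29). Rplp1 went from 1547 to 2429 (0.65, 0.62 to 0.68), which makes it the highest FPKM of any subunit gene in Diff–iKO. Rplp2 went from 1750 to 2272 (0.38, 0.36 to 0.40). The median of the 60S genes is below 0.

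The messages of the 5S particle proteins had ratios below 0, as did 29 of 46 genes of the 60S subunit, and neither was past the cut-off. Rpl5 and Rpl11 bind 5S rRNA and, when ribosome assembly fails, the p53 regulator Mdm2. Rpl5 was at 305 FPKM in Diff–CONT and 251 in Diff–iKO (log2 ratio -0.28, -0.32 to -0.25), and Rpl11 at 1021 and 769 (-0.41, -0.44 to -0.37). Both lie below the 60S median, neither reaches FC of 1.5, and 92.5% of the Rpl5 message is shared with other annotated transcripts in stretches of 75 bases.

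The lowest ratios in the cytosolic class were those of Rpl22, Rpl17 and Rpl32. Rpl22, a 60S protein that also binds other RNAs, went from 160 to 90.1 FPKM (-0.83, -0.88 to -0.77). Rpl17 went from 770 to 460 (-0.74, -0.79 to -0.70), and Rpl32 from 1761 to 1111 (-0.66, -0.70 to -0.63). For Rpl22 and Rpl32 the sequence is nearly their own, with 1.42% and 5.87% of 75-base stretches shared, whereas 77.9% is shared for Rpl17.

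In the 40S subunit the highest ratio with ample depth was that of Rps21, which went from 1057 to 1814 FPKM (0.78, 0.73 to 0.83). Rps26, which lies near the path of the message through the 40S subunit, went from 1437 to 2053 (0.51, 0.49 to 0.54). Rps28 (1139 to 1780, log2 ratio 0.64) and Rps24 (868 to 554, -0.65), the lowest of the 40S genes, were chosen after their values were seen. Rpsa, the laminin receptor homologue of the 40S subunit, was at 683 and 608 FPKM (-0.17, -0.19 to -0.14). Rps27a, which is made as a fusion to ubiquitin, was at 943 and 834 (-0.18, -0.21 to -0.14). The X-linked genes did not share a direction. Rps4x was lower (1331 to 1079, -0.30, -0.33 to -0.28), whereas Rpl10, Rpl36a (660 to 717, 0.12, 0.06 to 0.17) and Rpl39 were higher.

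Rpl30 was the only called cytosolic gene, and its value cannot be read apart from that of a near-identical copy. Rpl30 (chr15:34440505-34443640, minus strand, GRCm38) was at 60.004 FPKM in Diff–CONT and 195 in Diff–iKO (log2 ratio 1.70, 1.57 to 1.83). Gm12191, a single-exon processed pseudogene at chr11:49678710-49679057 that was looked up after the value of Rpl30 was seen, was at 853 FPKM and 664 (-0.36, -0.43 to -0.29). The 348 coding bases of Rpl30 differ from Gm12191 at 1 position. The FPKM of both added up to 913 in Diff–CONT and 859 in Diff–iKO (log2 ratio -0.09), which is not past the cut-off. Rpl30 rested on 685 and 1667 fragments and Gm12191 on 4048 and 2356. Gm12191 is the shorter transcript, so adding FPKM gives its fragments more weight. The direction of the sum depends on this weighting. Gm12191 held 93.4% of the summed FPKM in Diff–CONT and 77.3% in Diff–iKO. How reads that match both places were divided is not given in the sources used here, and its part in the result was not tested.

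Of all the members, 9 had a tabled retrocopy or pseudogene that shares at least 10% of their 75-base stretches, and for 4 the copy held at least 10% as much FPKM as the member. Besides Rpl30 these were Rps27, Rpl34 and Rpl26, and the copies were chosen after their values were seen. Rpl34 was at 90.9 FPKM in Diff–CONT and 109 in Diff–iKO (log2 ratio 0.26), but Rpl34-ps1 at 763 and 601 (-0.35), and the sum had a log2 ratio of -0.27. Rpl26 was at 137 and 172 (0.33), but Gm15772 at 1156 and 902 (-0.36), and the sum again had a log2 ratio of -0.27. In all 3 of these pairs the gene is higher, the pseudogene lower and the summed FPKM lower. For Rpl30 the direction of the sum depends on the weighting by length given above.

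Rps27 is the extreme case. Its own row held 5.03 FPKM in Diff–CONT and 8.68 in Diff–iKO (23 and 30 fragments, log2 ratio 0.79, -0.03 to 1.65). The protein is a constituent of the 40S subunit. Rps27rt, an intron-less copy on another chromosome that GENCODE annotates as protein-coding, was at 1866 and 1925 FPKM (0.05, 0.0027 to 0.09), and the sum had a log2 ratio of 0.05. Both ratios are below 0 under equal-sum scaling. Over the 255 coding bases, Rps27 and Rps27rt do not differ at any position, while the paralogue Rps27l differs from Rps27 at 61. The 3 coding sequences are given to show that fragments inside them could not be assigned to Rps27 or Rps27rt by their letters. They are written 5′ to 3′ from GENCODE vM21 transcripts (GRCm38), with bases that differ from Rps27 in capitals.
Rps27, spliced, within chr3:90212725-90213615, minus strand: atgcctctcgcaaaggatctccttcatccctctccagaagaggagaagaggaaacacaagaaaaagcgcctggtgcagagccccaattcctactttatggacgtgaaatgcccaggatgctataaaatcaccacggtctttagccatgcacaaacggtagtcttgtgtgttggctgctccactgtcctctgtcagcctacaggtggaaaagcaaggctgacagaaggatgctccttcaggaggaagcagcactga
Rps27rt, chr9:114982453-114982707, minus strand: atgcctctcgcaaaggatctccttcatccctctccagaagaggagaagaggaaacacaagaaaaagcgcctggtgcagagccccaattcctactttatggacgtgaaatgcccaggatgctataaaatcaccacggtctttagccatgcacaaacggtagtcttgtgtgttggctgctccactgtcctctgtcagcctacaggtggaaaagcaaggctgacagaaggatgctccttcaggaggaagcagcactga
Rps27l, spliced, within chr9:66946175-66949357, plus strand: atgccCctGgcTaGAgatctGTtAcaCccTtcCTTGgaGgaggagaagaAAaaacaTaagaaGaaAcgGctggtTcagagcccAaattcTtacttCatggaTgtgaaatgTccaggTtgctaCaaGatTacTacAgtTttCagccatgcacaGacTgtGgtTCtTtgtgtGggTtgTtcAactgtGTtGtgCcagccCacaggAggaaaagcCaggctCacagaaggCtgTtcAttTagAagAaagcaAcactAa

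**Figure D3:**
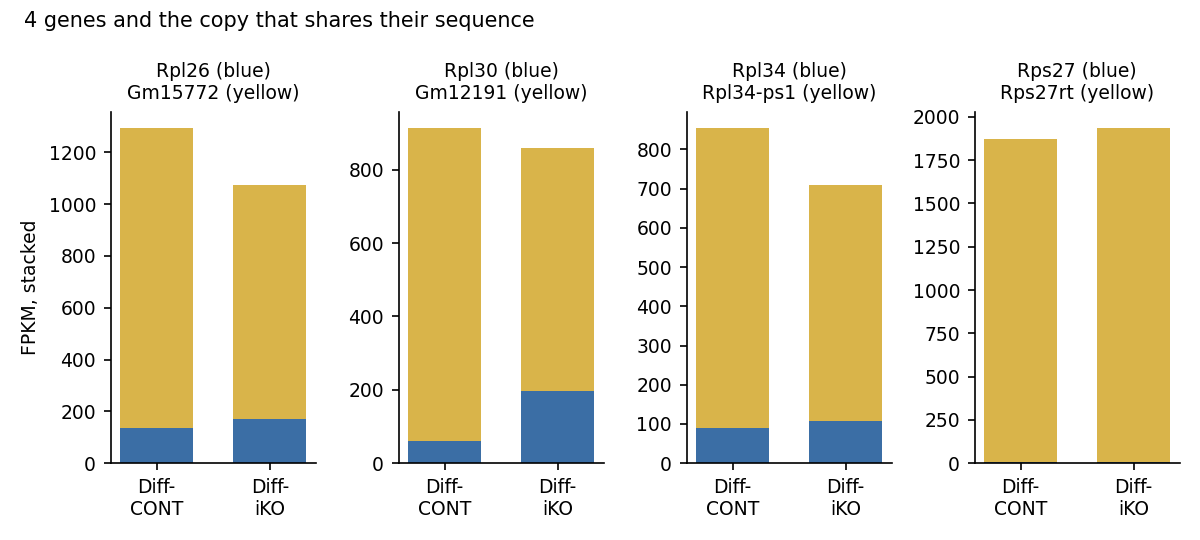
FPKM (vertical axis, from 0, own scale in each panel) of 4 genes in blue and of the copy that shares their sequence in yellow, stacked, in the Diff–CONT and Diff–iKO libraries, 1 value each. The blue part grows in Rpl26, Rpl30 and Rpl34 while the whole column shrinks, and for Rps27 the blue part is too small to see under Rps27rt.

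Shared sequence is the rule in the cytosolic class. Its median gene shares 49.9% of its 75-base stretches with transcripts of other genes and 38 of 77 share more than 50%. The mitochondrial median is 0.466%, and 36 of 77 genes share none. Across the 77 cytosolic genes, the log2 ratio had a Spearman rho of -0.12 with the shared percentage, -0.25 with transcript length and 0.14 with GC content. Across the mitochondrial genes the values were -0.07, -0.13 and 0.12. These are descriptions across genes of the same 2 libraries.

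Length matters for reading the classes, because short messages were higher in the table as a whole. Genes with transcripts under 600 nucleotides had a median log2 ratio of 0.14, those of 600 to 1000 nucleotides 0.11, of 1000 to 2000 nucleotides 0.04, of 2000 to 4000 nucleotides -0.01, and those of 4000 or more -0.07. The cytosolic medians in the first 3 of these bins were -0.05 (24 genes), -0.06 (30 genes) and -0.17 (19 genes), each below all genes of that length. The mitochondrial medians were 0.20 (6 genes), 0.17 (24 genes) and 0.08 (29 genes), each above. In the longer bins there were few members: 3 and 1 cytosolic genes with medians of -0.28 and -0.29, and 12 and 6 mitochondrial genes with medians of -0.03 and 0.25. The 689 genes of the table with a mean FPKM of at least 100 had a median of 0.16.

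Paralogues and parents were compared next. Of the 5 pairs, the paralogue had the higher ratio in each, by 2.84 (Rpl3l), 1.71 (Rpl10l), 0.78 (Rpl22l1), 1.88 (Rpl39l) and 0.25 (Rps27l) on the log2 scale. Rpl10l, Rpl39l and Rps27l were past the cut-off, and so was Rps4l among the other copies, all of them higher, against 6.73% called higher among all genes. Rpl10l and Rpl39l reach FPKM of 2 only in Diff–iKO, the library in which they are higher, so they could be called in that direction only. Rpl3l, Rpl10l, Rpl39l and, as the parent of Rps27l, Rps27 had few fragments, so 4 of the 5 differences are poorly resolved. With a pseudocount of 1 FPKM the differences of Rpl3l, Rpl10l and Rpl39l fall to 1.25, 1.00 and 1.03.

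Rpl10l (chr12:66283379-66284401, minus strand) is an intron-less autosomal copy of X-linked Rpl10 that differs from it at 98 of 645 coding bases. It was at 0.916 FPKM in Diff–CONT and 3.56 in Diff–iKO (23 and 67 fragments, log2 ratio 1.96, 1.26 to 2.71). Rpl10 was at 912 and 1087 FPKM (0.25, 0.22 to 0.28), so Rpl10l stood at 0.1004% of its parent in Diff–CONT and 0.328% in Diff–iKO. Rpl39l likewise was at 0.754 and 3.44 FPKM (14 and 48 fragments, 2.19, 1.31 to 3.17) while X-linked Rpl39, a small protein at the exit tunnel of the 60S subunit, was at 890 and 1103 (0.31, 0.27 to 0.35). Of the 156 coding bases 23 differ, and the longest identical run of 38 bases is shorter than the 75 bases used for the shared stretches, of which Rpl39l has none. Both coding sequences are given to show where fragments of this pair can be told apart, with bases of Rpl39l that differ from Rpl39 in capitals.
Rpl39, spliced, within chrX:37082701-37085127, minus strand: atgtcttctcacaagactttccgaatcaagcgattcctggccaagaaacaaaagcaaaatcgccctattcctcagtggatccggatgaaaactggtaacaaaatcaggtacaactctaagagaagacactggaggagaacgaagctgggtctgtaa
Rpl39l, chr16:10174310-10174465, plus strand: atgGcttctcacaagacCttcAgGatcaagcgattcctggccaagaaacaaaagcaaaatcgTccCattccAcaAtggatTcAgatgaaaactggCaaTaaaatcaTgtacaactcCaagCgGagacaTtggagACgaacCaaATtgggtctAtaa

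Germ cell markers were low in both libraries. Of the 6 markers 4 had the larger value in Diff–iKO, their summed level was 2.92 FPKM in Diff–CONT and 10.1 in Diff–iKO, and Prm1 and Tnp1, which define haploid male germ cells, were listed at 0 in both libraries. Ddx4, a germ cell helicase, was at 1.48 FPKM in Diff–CONT and 4.42 in Diff–iKO (log2 ratio 1.58), and Sycp3, a component of meiotic chromosome axes, at 0.570 and 2.71 (2.25). These 2 were called, and both reach FPKM of 2 only in Diff–iKO. Dazl, at 0.269 and 1.89, is below the FPKM of the cut-off, and the interval of Stra8 spans 0 (0.604 and 1.05, log2 ratio 0.80, -0.03 to 1.65). The part of these markers in the values of Rpl10l and Rpl39l was not tested.

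Rpl3l, the striated muscle paralogue of Rpl3, was at 0.196 FPKM in Diff–CONT and 0.976 in Diff–iKO. These values rest on 5 and 18 fragments (log2 ratio 2.32, 0.79 to 4.05), and the gene is below the FPKM of the cut-off. Rpl3, which lies near the peptidyl transferase center, was at 814 and 567 (-0.52, -0.55 to -0.49). Of the 4 skeletal muscle markers 3 were higher, and their sum of 12.97 and 65.5 FPKM is nearly all Acta1, the skeletal actin gene (12.6 and 64.9). Myod1 was at 0.0599 FPKM in Diff–CONT and listed at 0 in Diff–iKO. Of the genes of heart muscle, which is striated too, Tnnt2 was at 14.7 and 4.17 FPKM, Myh6 at 1.85 and 0.207, and Myh7 at 8.96 and 1.44, while Nppa went the other way at 0.259 and 0.898 (5 and 14 fragments, log2 ratio 1.79, 0.35 to 3.73). The part of these markers in the value of Rpl3l was not tested.

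Rpl22l1 had more FPKM than its parent gene in both libraries. Rpl22l1 was at 231 FPKM in Diff–CONT and 223 in Diff–iKO (log2 ratio -0.05, -0.14 to 0.04), an interval that includes 0, while Rpl22 was at 160 and 90.1. Rpl22l1 thus went from 144% to 247% of the level of Rpl22. The coding sequences are 70.2% identical over 369 aligned bases, with no identical run above 26 bases, although 53.9% of the 75-base stretches of Rpl22l1 are shared with other genes. The highest tabled copy among these, the pseudogene Gm15421 (looked up after the values were seen), was at 0.961 and 0.783 FPKM.

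Rps27l, whose gene is a known target of p53, was at 179 FPKM in Diff–CONT and 367 in Diff–iKO (log2 ratio 1.03, 0.94 to 1.12). It has 12% of shared 75-base stretches, and its call holds at the edge of FC of 2: under equal-sum scaling the log2 ratio is 0.94. The difference of 0.25 from Rps27 carries little weight, since Rps27 has 23 and 30 fragments. Rps27 and Rps27rt summed had a log2 ratio of 0.05.

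**Figure D4:**
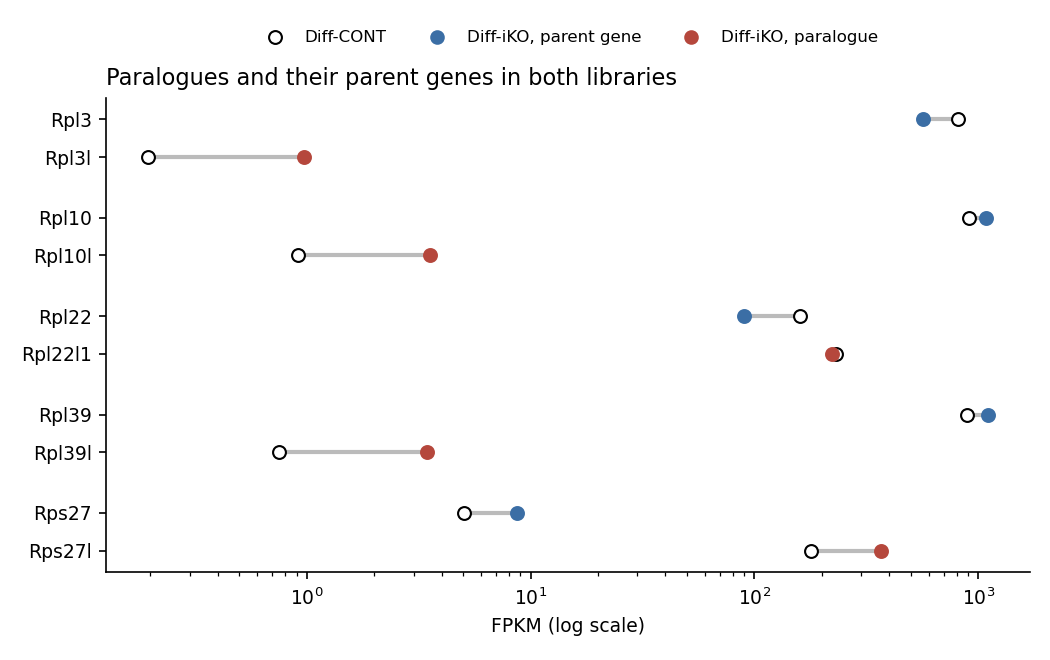
FPKM (horizontal log axis) of the 5 paralogues and their parents, with open circles for Diff–CONT and filled circles for Diff–iKO (blue, parent; red, paralogue), 1 library each. Rpl3l, Rpl10l and Rpl39l lie far to the left of their parents and are higher in Diff–iKO, and Rps27, at 5.03 and 8.68 FPKM, lies left of Rps27l.

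Among the other copies, Rps4l (chr6:148354656-148355598), a copy of Rps4x with 80.1% identity over 789 bases, was at 87.8 FPKM in Diff–CONT and 235 in Diff–iKO (1985 and 3977 fragments, log2 ratio 1.42, 1.34 to 1.501). GENCODE annotates it as a transcribed processed pseudogene, and 6.67% of its 75-base stretches are shared. Rpl7l1 was at 44.4 and 23.1 (-0.94, -1.04 to -0.85), past FC of 2 under equal-sum scaling, and Rpl36al at 195 and 214 (0.14, 0.04 to 0.24).

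In the mitochondrial ribosome, Mrpl33 was the only called gene. This small protein of the large subunit went from 65.4 to 148 FPKM (566 and 960 fragments, log2 ratio 1.18, 1.03 to 1.33) and had the highest FPKM of the class in Diff–iKO. Of its 75-base stretches, 26.0% are shared with transcripts of 1 other gene. Next were Mrpl55 (14.9 to 28.7, 0.94, 0.71 to 1.18) and Mrpl57 (5.54 to 10.2, 0.88, 0.70 to 1.06), both large-subunit proteins. At the other end, Mrpl23, which lies at the exit of the peptide tunnel, went from 24.3 to 13.3 FPKM (-0.87, -1.15 to -0.59), with 75.4% of its stretches shared with an annotated pseudogene. Mrpl32 went from 26.0 to 14.5 (-0.84, -0.96 to -0.73), and Mrpl50 from 18.6 to 10.6 (-0.81, -0.98 to -0.66), neither with shared stretches. Large-subunit genes thus fill both ends of the range, and their SD across genes was 0.47 against 0.36 for the small subunit.

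Mrpl16 (16.1 to 28.6, 0.83) and Mrps28 (30.7 to 54.1, 0.82), named after their values were seen, also lay further from 0 than Mrpl50. Mrpl52, at 91.3 and 84.3 FPKM, was the most abundant in Diff–CONT (-0.11, -0.29 to 0.07), and Mrps16, a small-subunit protein, went from 66.5 to 88.5 (0.41, 0.30 to 0.53). Among the small-subunit genes 14 had an interval above 0, 6 below and 9 across it.

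The start of the message was examined because it distinguishes cytosolic from mitochondrial genes and is not part of the rule. RefSeq promoter windows (GRCm38.p6, 250 bases before to 50 after the start) matched 57 of 77 cytosolic and 68 of 77 mitochondrial genes. A C followed by at least 4 pyrimidines at the annotated start was found in 19.4% of 67 cytosolic windows, in 0 of 74 mitochondrial windows and in 2.51% of all 32851 windows. A run of at least 6 pyrimidines within 5 bases of the start was found in 44.8%, 24.3% and 21.0%. On either strand, the ETS core CCGGAAG was found in 37.3%, 33.8% and 8.86% of windows, the YY1 core CCATNTT in 34.3%, 29.7% and 16.1%, and TATAAA in 8.96%, 6.76% and 13.6%. The 13 cytosolic genes with a C and pyrimidines at the start had a median log2 ratio of -0.21 and the 44 matched genes without one -0.09. For the run of 6 pyrimidines the medians were -0.15 (29 genes) and -0.09 (28 genes). They were 0.14 (18 genes) and -0.16 (39 genes) for the YY1 core, -0.03 (24 genes) and -0.15 (33 genes) for the ETS core, and 0.21 (6 genes) and -0.15 (51 genes) for TATAAA. Among the mitochondrial genes, the medians with and without the YY1 core had the opposite order, at -0.02 (22 genes) and 0.12 (46 genes). They were 0.27 (25 genes) and 0.06 (43 genes) for the ETS core, 0.30 (5 genes) and 0.07 (63 genes) for TATAAA, and 0.08 (18 genes) and 0.07 (50 genes) for the run of 6 pyrimidines. None of these differences was tested. A match is a description of letters in these windows and not of a site in use.

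Start windows from 10 bases before to 20 from the start are given for Rplp2 and Rps21, which were higher, for Rps27 and its copy Rps27rt, which share the start of the message, and for Mrpl33. Pyrimidine runs of at least 5 that come within 5 bases of the start are in capitals. Rps21 has a further annotated start, with its window at chr2:180257439-180257468, that has no such run.
Rplp2, chr7:141447641-141447670, plus strand: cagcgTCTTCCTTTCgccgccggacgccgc
Rps21, chr2:180257369-180257398, plus strand: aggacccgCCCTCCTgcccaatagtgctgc
Rps27, chr3:90213629-90213658, minus strand: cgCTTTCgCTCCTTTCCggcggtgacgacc
Rps27rt, chr9:114982720-114982749, minus strand: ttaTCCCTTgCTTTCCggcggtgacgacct
Mrpl33, chr5:31613941-31613970, plus strand: gcatgccccggaagtagtcgttgagctctt

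Genes that build ribosomes were mostly higher in the Diff–iKO library. Of 54 ribosome biogenesis genes, 48 were higher, with a median log2 ratio of 0.36, and 3 were called (5.56%), all higher, against 15.1% called and 6.73% called higher among all genes, of which 49.3% were higher in sign. Under equal-sum scaling Dkc1 and Nop10 are no longer past FC of 2. Dkc1, the pseudouridine synthase of box H/ACA particles, went from 32.3 to 68.8 FPKM (log2 ratio 1.09, 1.02 to 1.16). Nop10, of the same particles, went from 62.1 to 127 (1.03, 0.94 to 1.12), and Mdn1, the AAA ATPase that acts on 60S precursors, from 9.42 to 21.4 (1.18, 1.13 to 1.23). The most abundant were Npm1, a nucleolar chaperone, at 1199 and 1336 FPKM (0.16, 0.13 to 0.18) and Nop56, of box C/D particles, at 101 and 162 (0.69, 0.64 to 0.74). RNA polymerase I, which transcribes the large rRNAs, showed the same direction: 13 of 14 genes were higher, the median was 0.46 and 0 were called. Its most abundant members were Polr1d (70.4 and 80.1 FPKM, 0.19, 0.09 to 0.28) and Taf1d (50.5 and 73.5, 0.54, 0.43 to 0.65). The pluripotency markers were higher in the same library, and their part in these values was not tested.

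**Figure D5:**
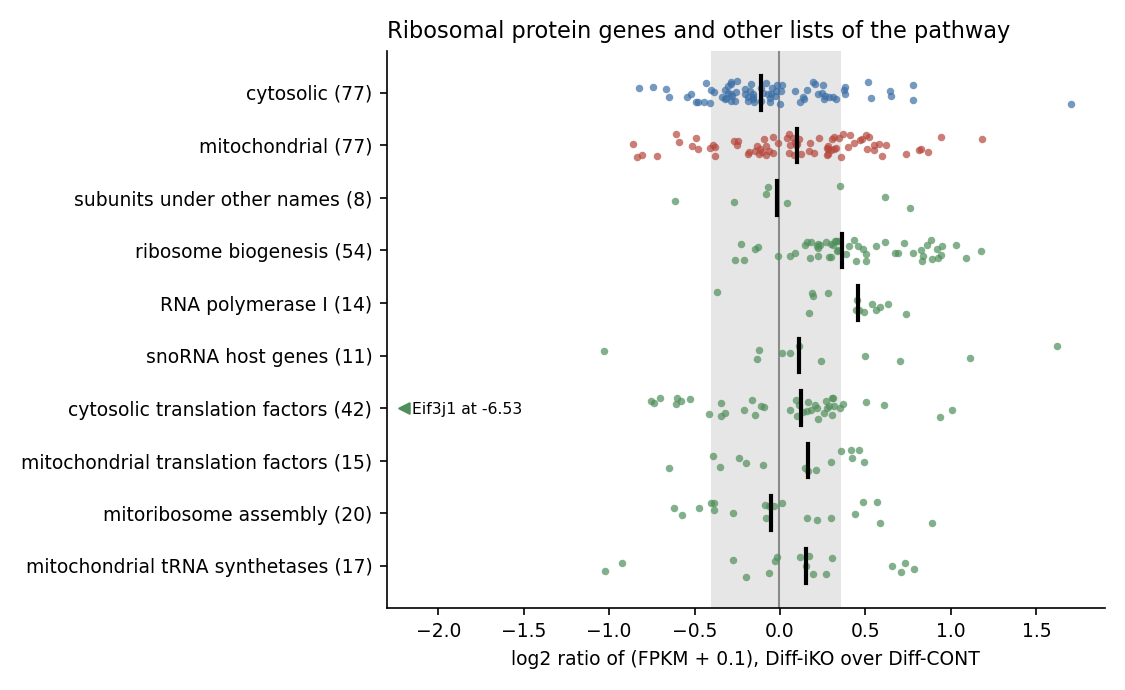
The log2 ratio of FPKM + 0.1 (horizontal axis) is plotted for every gene of 10 lists, with the list median as a black bar, the quartiles of all genes in grey and the number of genes in brackets. The bars of ribosome biogenesis (0.36) and RNA polymerase I (0.46) lie at or beyond the upper edge of the grey band, and those of the other 8 lists lie within it.

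The remaining lists of the pathway had medians inside the quartiles of all genes. Among the 8 subunit genes under other names, 4 were higher and 4 lower with a median of -0.02 and 0 called, including Gnb2l1, the Rack1 scaffold of the 40S subunit (1255 and 1185 FPKM, -0.08, -0.10 to -0.06). Of 11 snoRNA host genes 8 were higher with a median of 0.11, and 3 were called (27.3%, against 15.1% of all genes). Snhg3 (26.3 to 81.0 FPKM, log2 ratio 1.62) and Snhg4 (11.3 to 24.4, 1.12) were called higher and Snhg11 (28.5 to 13.9, -1.03) lower, while Snhg1 (123 to 133) and Snhg6 (109 to 98.9) were the most abundant.

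The 42 cytosolic translation factors had a median of 0.12, with 25 higher and 17 lower. The elongation factors Eef1a1 (5107 to 4023 FPKM, log2 ratio -0.34) and Eef2 (1272 to 1019, -0.32) were lower. Pabpc1, the poly(A) binding protein, was called higher (457 to 919, 1.01), a call that ends under equal-sum scaling. With Eif3j1 it makes 2 calls in the list (4.76%, against 15.1% of all genes). Eif3j1 was called lower (14.9 to 0.0628 FPKM, 2340 and 7 fragments, log2 ratio -7.89). Of its 75-base stretches, 37.7% are shared with Eif3j2, which was looked up after this value was seen. Eif3j2 went from 4.00 to 22.4 FPKM (263 and 1102 fragments), and the summed FPKM had a log2 ratio of 0.25. Eif3j2 is the shorter transcript, so adding FPKM gives its fragments more weight. The direction of this sum depends on the weighting.

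On the mitochondrial side, where the counts below stand against 15.1% called among all genes, the 15 translation factors had a median of 0.16 (9 higher, 0 called), with Tufm, the elongation factor, at 44.1 and 49.4 FPKM and Slirp, an RNA-binding protein, at 79.3 and 87.9. The 20 mitoribosome assembly genes had a median of -0.05 (9 higher, 0 called), with Dhx30 at 35.4 and 34.6 FPKM and Rbfa at 19.8 and 29.7. The 17 mitochondrial tRNA synthetases had a median of 0.15 (10 higher), and 1 of them, Wars2, was called lower (3.37 to 1.603, log2 ratio -1.07). Lars2 was at 258 and 421 FPKM (0.71) and Iars2 at 40.8 and 46.6 (0.19).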

How the data were processed

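RNA of 1 Diff–CONT and 1 Diff–iKO culture was analysed from the deposited gene table. Per the methods and labels, the authors made libraries with a stranded mRNA kit from 1 µg of total RNA, aligned paired-end reads to mm10 with STAR (2.7.9a) and deposited FPKM values from Cuffnorm (Cufflinks 2.2.1). The methods name default options for STAR, in a passage that opens with public data. How Cuffquant divided reads that align to several places, the gene annotation, the read length and the strand setting are not given in the sources used here. The 2 columns were assigned by name, and 0 other columns of values were present.

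The genes and lists were chosen with earlier results of these data known. A gene was called at FC ≥ 2 where either library held FPKM ≥ 2, with no pseudocount added. List medians used log2(FPKM + 0.1), which understates changes of low genes, for genes whose FPKM averaged 1 or more. Named genes were the paralogues and parents, every member past the cut-off, the 3 highest and 3 lowest ratios per class at FPKM ≥ 10 in 1 library, the 3 most abundant per class, the stalk and 5S particle genes, Rpsa, Rps27a, Rps4x and Rpl36a, Ino80, and of each pathway list the 2 most abundant genes and all called genes. Some genes are not reported here.

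Fragments were recovered from genes that have a single RefSeq transcript, 500 nucleotides or longer, with 190 nucleotides subtracted from the length. Within a tolerance of 0.2, 87.2% of 1566 low Diff–CONT values and 86.8% of 1679 low Diff–iKO values were whole, against 40% by chance. Fragments per gene use the shortest RefSeq-linked transcript and are approximate where a gene has several. PCR copies are not independent molecules, so intervals cover counting error only. The step was tested on simulated data.

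Of the symbols, 23315 matched GENCODE vM21 (GRCm38) directly, 650 by a RefSeq synonym and 389 not. Shared sequence is the percentage of 75-base stretches of that transcript found in transcripts of other genes, a length that was set without knowledge of the reads. Coding sequences were aligned with Biopython 1.88. Alternatives were pseudocounts, FPKM filters, FC of 1.5 and 4, 3 scalings, short transcripts left out, and copies summed or left out. Scripts ran in Python 3.11.15 with scipy 1.17.1, numpy 2.4.6, matplotlib 3.10.9 and pandas 2.3.3.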

Additional observations from a re-analysis of the deposited data

How the results depend on the processing

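No paired analysis was possible because each condition has 1 library, and for the same reason no library could be left out. The cytosolic median of -0.11 was -0.20 with both libraries scaled to the same FPKM sum and -0.15 without transcripts under 600 nucleotides. It was also -0.15 with 4 members summed with their retrocopy or pseudogene and with those 4 left out, both chosen after seeing the data. The number of cytosolic members past the cut-off, 1, was 9 at FC of 1.5, 0 at FC of 4 and 0 with the copies summed. The mitochondrial number, 1, was 14 at FC of 1.5 and 0 at FC of 4. Of all genes, 1871 passed, against 4023 at FC of 1.5, 515 at FC of 4 and 1057 with FPKM of at least 2 in both libraries. As shares of recovered fragments, the cytosolic class held 4.98% and 4.57% and the mitochondrial class 0.270% and 0.279%. Adding the FPKM of the copy turned the log2 ratio of Rpl30 from 1.70 to -0.09, of Rpl34 from 0.26 to -0.27 and of Rpl26 from 0.33 to -0.27. For Rpl30 the direction of the sum depends on the weighting of fragments by transcript length. Equal-sum scaling turned the ratio of the 40S sums from 0.04 to -0.05 and takes Rps27rt below 0. Pseudocounts and scalings were tried for the ribosomal protein genes named by the rule and for Ino80, and none of those changed direction. Of the alternatives for class, share and pair values, 73 stayed within the counting error or, for counts, within 1.5 times, and 16 did not. The equal-sum scaling takes Rps27l (0.94), Dkc1, Nop10 and Pabpc1 below FC of 2 and Rpl7l1, Col1a2 and Thy1 past it, and a pseudocount of 1 takes the log2 ratio of Rpl3l from 2.32 to 0.72, of Rpl10l from 1.96 to 1.25 and of Rpl39l from 2.19 to 1.34. Depth limits Rpl3l, Rpl10l, Rpl39l and Rps27, which rest on 5 to 67 fragments. The difference between cultures, lines or repeats of either condition could not be measured with 1 library each.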
